A study of Mus musculus with 73 samples.

Results

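Mcts2, Nap1l5 and Zrsr1 are short genes that lie within the bounds of longer host genes, and H13, Herc3 and Commd1 are those hosts. Inpp5f is also a host, since it contains an intronic promoter of a shorter transcript of its own. These 7 genes were taken by name from the 30546 genes of the deposited allele-specific table and followed over 12 groups of mouse embryonic tissue. The study asked which chromatin regulators keep genes silent on 1 parental allele. Epiblast, the source of the embryo proper, and extraembryonic ectoderm (ExE), a placental precursor, were dissected from single embryos at embryonic day 6.5 after the visceral endoderm had been removed, and gave 35 and 37 libraries.

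All knockout embryos had a BDF1 mother and a CAST father and came from intracytoplasmic sperm injection. The zygotes received Cas9 mRNA and guide RNAs and were carried by CD-1 females. Cas9 injected into zygotes can leave mosaic embryos, and each library came from about 300 to 600 cells. The groups were Dnmt1 (3 epiblast and 3 ExE libraries), G9a-Glp (6 and 8; the genes Ehmt1 and Ehmt2 together), Rnf2 (6 and 5) and Eed (9 and 10). Wild-type BDF1xCAST embryos, mother named first, gave 7 libraries in each tissue and served as the controls of all 4 knockouts, so the 4 comparisons within a tissue share them. The reciprocal wild type, CASTxBDF1, gave 4 libraries in each tissue and came from natural mating, so that the direction of the cross and the mode of fertilisation cannot be told apart. Within a tissue each library was a separate embryo by its label, and epiblast and ExE of many embryos were both sequenced. Maternal reads are BDF1 reads in every group except CASTxBDF1, where they are CAST reads.

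Imprinted genes are transcribed mainly from 1 parental allele. At many of them the maternal copy of a promoter is methylated in the oocyte, and the paternal copy stays unmethylated and active. Mcts2, Nap1l5 and Zrsr1 arose by reverse transcription of X-linked genes, and their promoters lie in such maternally methylated regions. The hosts are older genes whose own promoters are not imprinted. At H13 earlier work found that transcripts ending before Mcts2 come mainly from the paternal allele and longer ones mainly from the maternal allele. The Dnmt1 enzyme copies methylation to newly made DNA. Ehmt1 and Ehmt2 methylate lysine 9 of histone H3, Rnf2 is the ubiquitin ligase of Polycomb repressive complex PRC1, and Eed is a core subunit of PRC2.

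The 250 bases before the start site that RefSeq's promoter table gives for the 3 intronic genes and for H13 are shown because the maternal and paternal copies of the first 3 are held to differ in methylation and that of H13 is not. They are from RefSeq, build GRCm38.p6, and run 5′ to 3′ on the strand of the gene. Capitals mark the letters TGCCGC, a core of the motif that the methylated-DNA reader ZFP57 recognises, searched on both strands (GCGGCA on the other). The windows are chr2:152686898-152687147 for Mcts2 (plus strand), chr6:58907127-58907376 for Nap1l5 (minus strand), chr11:22971755-22972004 for Zrsr1 (plus strand) and chr2:152669211-152669460 for H13 (plus strand), whose last bases lie inside the gene's outer bounds given below.
Mcts2: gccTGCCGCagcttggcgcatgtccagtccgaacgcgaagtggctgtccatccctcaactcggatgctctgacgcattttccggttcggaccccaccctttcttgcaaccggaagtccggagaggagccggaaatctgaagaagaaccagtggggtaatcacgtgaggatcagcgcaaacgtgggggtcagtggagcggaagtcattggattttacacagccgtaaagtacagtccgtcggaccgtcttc
Nap1l5: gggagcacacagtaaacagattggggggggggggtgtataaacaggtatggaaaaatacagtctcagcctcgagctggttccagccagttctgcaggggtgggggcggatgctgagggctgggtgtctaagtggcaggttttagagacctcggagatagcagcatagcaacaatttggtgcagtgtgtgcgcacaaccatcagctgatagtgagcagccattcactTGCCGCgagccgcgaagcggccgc
Zrsr1: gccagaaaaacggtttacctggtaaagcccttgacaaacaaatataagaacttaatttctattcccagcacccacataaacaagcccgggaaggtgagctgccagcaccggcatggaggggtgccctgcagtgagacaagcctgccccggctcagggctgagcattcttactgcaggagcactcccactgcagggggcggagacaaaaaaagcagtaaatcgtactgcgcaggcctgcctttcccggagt
H13: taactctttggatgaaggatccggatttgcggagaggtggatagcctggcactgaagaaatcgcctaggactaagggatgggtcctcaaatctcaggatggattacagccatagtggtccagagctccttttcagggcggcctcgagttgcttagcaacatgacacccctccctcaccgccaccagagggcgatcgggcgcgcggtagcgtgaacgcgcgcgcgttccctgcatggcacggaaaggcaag
The Mcts2 window held 20 CG pairs, Nap1l5 10, Zrsr1 8 and H13 18, against a median of 6 over 32851 RefSeq windows of the same length. TGCCGC occurred 1 time in the Mcts2 window and 1 time in the Nap1l5 window, 0 times in those of Zrsr1 and H13, and in 8.68% of all windows. These are matches of letters, and no methylation or binding was measured in these libraries.

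The genes differed widely in how many reads they gave. The values are reads over polymorphisms between BDF1 and CAST, so a gene with few polymorphisms gives few reads at any level of expression. Over all 72 libraries Mcts2 had 9105 reads, H13 7478, Commd1 9197, Inpp5f 7870 and Herc3 2680. Zrsr1 had 647, with at least 10 in 21 libraries, and Nap1l5 had 25. Shares below were averaged over libraries with at least 10 reads, and Zrsr1 was summed over each group instead. Library totals ran from 1141414 to 3976031 such reads outside Rnf2, and from 5549733 to 17653087 in Rnf2 epiblast and 1847681 to 10263280 in Rnf2 ExE. In every library 56.1 to 58.6% of the autosomal reads carried BDF1 alleles, in both crosses. Epiblast libraries had 1821 to 6176 CPM (the reads of a gene scaled to 1e+06 library reads) of 6 epiblast markers and ExE libraries had 482 to 1292, while 7 ExE markers stood at 24.2 to 245 CPM in epiblast and 308 to 1336 in ExE. Of the 6 epiblast markers, 5 were detected in BDF1xCAST ExE, 4 in CASTxBDF1 ExE and 6 in each knockout ExE group. Pou5f1 was at 0 in wild-type ExE and was detected in each knockout ExE group. The 5 decidua markers summed to 1.37 to 43.9 CPM over all libraries, with 2 to 5 of them detected in a group and Prl8a2 at 0 in 10 of the 12 groups. Visceral endoderm markers summed to at least 138 CPM in 7 libraries. These were CASTxBDF1 epiblast embryo 2 (2411 CPM), BDF1xCAST epiblast embryo 8 (450 CPM), G9a-Glp epiblast embryos 5, 2 and 3 (305, 166 and 139 CPM), Dnmt1 epiblast embryo 1 (188 CPM) and G9a-Glp ExE embryo 7 (138 CPM). Among the targeted genes, Eed RNA stood at 5.96% of wild type in epiblast and 3.95% in ExE, and Dnmt1 at 24.3% and 61.4%. Ehmt2 stood at 100.03% in the libraries labelled G9a-Glp epiblast, where 0 of 6 lay below the wild type, and at 24.4% in ExE. Its epiblast level was low, 3.07 CPM in both knockout and wild type. Ehmt1 stood at 72.2% in epiblast (2 of 6 libraries below the lowest of the wild type) and 50.6% in ExE (5 of 8). Rnf2 RNA stood at 58.6% in the libraries labelled Rnf2 epiblast (4 of 6 below) and 77.4% in Rnf2 ExE (0 of 5 below). An edited gene need not lose RNA.

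Mcts2 (chromosome 2, 152687148 to 152687946, mm10, plus strand) is the retrogene of Mcts1, a translation reinitiation factor. It was read almost wholly from the paternal allele in the wild type. In BDF1xCAST epiblast the maternal reads were 3 of 113, 3 of 126, 0 of 103, 0 of 109, 1 of 129, 3 of 157 and 0 of 44, a mean share of 1.10% ± 1.19 (SD, n = 7). In CASTxBDF1 epiblast 0 of 492 reads were maternal, which allows a share of up to 0.610%. The ExE shares were 0.569% ± 1.13 (n = 7) and 0.758% ± 1.52 (n = 4). EdgeR's quasi-likelihood test over both crosses separates the parent from the strain. Its maternal to paternal log2 ratio for Mcts2 was -8.02 ± 0.32 in epiblast (edgeR adjusted p 9.71e-12) and -6.96 ± 0.33 in ExE (adjusted p 1.17e-11). For edgeR values, the figure after ± is the log2 value divided by the square root of the test's F statistic. It is not a fitted standard error and can be too small where an allele has few reads. Maternal Mcts2 reads were 10 in BDF1xCAST and 0 in CASTxBDF1 epiblast, and 4 and 3 in ExE. Mcts2 met the rule for a paternally expressed gene in both tissues, which was an adjusted p under 0.05 and a maternal share of at most 30% in both crosses. Of all genes tested, 0.272% in epiblast and 0.497% in ExE met this rule or its maternal counterpart.

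Without Dnmt1 the maternal allele of Mcts2 was read in every embryo. In Dnmt1 epiblast 92 of 152 reads were maternal in embryo 1 (60.5%, 95% Wilson interval 52.6 to 67.9), 35 of 63 in embryo 2 (55.6%, 43.3 to 67.2) and 43 of 95 in embryo 3 (45.3%, 35.6 to 55.3). In Dnmt1 ExE the counts were 25 of 65 (38.5%, 27.6 to 50.6), 25 of 66 (37.9%, 27.1 to 49.9) and 30 of 92 (32.6%, 23.9 to 42.7). The means were 53.8% ± 7.78 and 36.3% ± 3.22 (n = 3 each), and no Dnmt1 library overlapped the wild type. The intervals cover counting error only, since the reads carry no molecular identifiers. The allelic log2 ratio moved towards the maternal allele by 6.39 ± 0.46 in epiblast (edgeR adjusted p 1.18e-08) and 6.32 ± 0.53 in ExE (adjusted p 2.75e-07). The wild-type side rests on 10 maternal reads in epiblast and 4 in ExE, so the size of both changes is imprecise. Among all autosomal genes tested, 0.908% and 0.856% changed, 0.377% and 0.402% towards the maternal allele. A test of the difference between the tissues in this change gave -0.11 ± 1.07 (edgeR adjusted p 1, where 0.0% of genes passed).

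**Figure D1:**
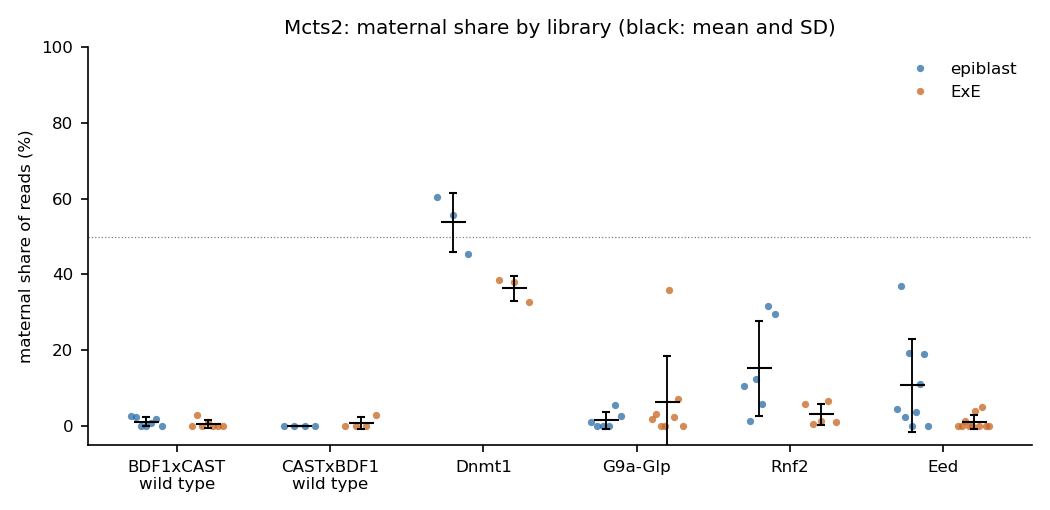
Maternal share of Mcts2 reads, in percent, for each library (points) in the 12 groups, with the mean and SD of each group. Wild-type libraries lie at or below 3.03%, all 6 Dnmt1 libraries lie at 32.6% or above, and libraries of Rnf2, Eed and G9a-Glp run from 0% up to 36.8%.

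In the other knockouts the maternal share of Mcts2 differed from embryo to embryo. In Rnf2 epiblast the shares were 10.6, 1.29, 12.4, 5.78, 31.6 and 29.5% in embryos 1, 2, 3, 5, 6 and 8, and 5 of the 6 lay above the highest wild-type library at 2.65%. These are deep libraries, and the 2 high values rest on 73 of 231 and 87 of 295 reads (95% Wilson intervals 25.9 to 37.9 and 24.6 to 34.9). In Eed epiblast the lowest was 0%, the median 4.62% and the highest 36.8% (28 of 76 reads, 26.9 to 48.1), and 6 of 9 lay above the wild type. The edgeR test gave 3.44 ± 0.84 for Rnf2 (adjusted p 0.0664) and 3.00 ± 0.79 for Eed (adjusted p 0.0612), so neither passed the threshold over all genes. Rnf2 passed without embryo 2, and Eed passed without embryo 3, 5, 6 or 10. In ExE the shares were 5.75, 0.496, 1.41, 6.54 and 1.08% for Rnf2 (edgeR adjusted p 0.32) and 0 to 5.13% for Eed (adjusted p 0.838). G9a-Glp epiblast had 0 to 5.56% (adjusted p 0.866).

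G9a-Glp ExE held 1 library far from the others. In embryo 7, 33 of 92 Mcts2 reads were maternal (35.9%, 95% Wilson interval 26.8 to 46.1). The next was embryo 9 with 8 of 111 (7.21%), and the remaining 6 had 0 to 3.12%. The group's change was 3.46 ± 1.04 (edgeR adjusted p 0.144), and leaving out a library gave 2.03 to 4.69. The epiblast of the embryo with the same number had 2 of 72 maternal reads (2.78%). Embryo 7 also had the highest visceral endoderm marker sum of ExE, 138 CPM against 12.2 to 27.5 in wild-type ExE, and its part in the Mcts2 value was not tested. In Rnf2 embryo 6 the share was 31.6% in epiblast and 6.54% in ExE, and in Eed embryo 2 it was 36.8% in epiblast with 0 of 46 reads in ExE. No interaction between knockout and tissue passed the threshold for Mcts2 (edgeR adjusted p 0.682 for G9a-Glp, 0.971 for Rnf2 and 0.829 for Eed), where 0.311, 0.274 and 0.865% of genes did.

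Mcts2 was compared with other paternally expressed genes that have a maternally methylated region, a list of 19 genes of which 15 have a row under the listed name. Their summed reads were 0.914 to 9.23% maternal in single wild-type libraries, 54.2 to 57.3% in Dnmt1 epiblast and 49.9 to 51.9% in Dnmt1 ExE. In the wild type 7 of 8 tested genes of the list were called paternal in each tissue. The remaining gene in epiblast, Nespas, was called maternal there. It is named after its value was seen, and it is antisense to a maternally expressed transcript of Gnas. In Dnmt1, 7 of 7 tested genes changed in epiblast (median log2 4.93, against -0.01 over all genes) and 6 of 6 in ExE (median 6.26, against -0.01). In Rnf2, 1 of 8 changed in epiblast and 2 of 8 in ExE. In Eed, 1 of 8 changed in epiblast and 4 of 8 in ExE, and in G9a-Glp 1 of 8 and 1 of 7. All these calls were towards the maternal allele. Over all genes tested in epiblast and ExE, 0.326% and 0.455% moved that way in Rnf2, 0.343% and 1.22% in Eed and 0.656% and 0.618% in G9a-Glp. Both directions together made up 0.696% and 0.922%, 1.06% and 2.65%, and 1.79% and 1.1%.

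Libraries with much maternal Mcts2 were not always those with much maternal RNA of the list. The list value is a share of summed reads, so genes with many reads weigh most in it. In Rnf2 epiblast embryo 6, Mcts2 was 31.6% maternal and the list 7.91%. In Rnf2 ExE embryo 6 the list reached 37.5% and Mcts2 6.54%. In Eed ExE embryo 6 the list reached 40.5% and Mcts2 4.0% (2 of 50 reads). In G9a-Glp ExE the list stood at 21.0% in embryo 1, where Mcts2 was 1.82% maternal, and at 20.2% in embryo 7. The list and Mcts2 were thus both high in embryo 7 of G9a-Glp ExE, and in embryo 1 the list alone was.

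H13, the host of Mcts2, encodes signal peptide peptidase, which cleaves signal peptides within the membrane. Its row in the table (chromosome 2, 152688239 to 152705052, plus strand) starts 292 bases after the end of Mcts2. It leaves out the first 18817 bases of the RefSeq gene (152669422 to 152708668), so the H13 values are those of transcripts that continue past Mcts2. They were mainly maternal in the epiblast of both crosses. In BDF1xCAST epiblast the maternal reads were 22 of 30, 41 of 45, 26 of 29, 33 of 39, 18 of 18, 14 of 21 and, in embryo 8 with too few for the average, 7 of 9. The mean was 84.2% ± 12.3 (n = 6), and CASTxBDF1 epiblast had 84.5% ± 14.0 (n = 4). The ExE shares were 65.4% ± 6.63 (n = 7) and 77.6% ± 3.70 (n = 4).

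The parental log2 ratio of H13 was 2.53 ± 0.35 in epiblast (edgeR adjusted p 0.000192) and 1.36 ± 0.15 in ExE (adjusted p 4.79e-06). H13 met the rule for a maternally expressed gene, a share of at least 70% in both crosses, in epiblast and missed it in ExE. Mcts2, H13 and Inpp5f were the 3 of 5 tested members with a parental bias in epiblast, and Mcts2 and H13 the 2 of 5 in ExE, where 0.319% and 0.844% of all genes passed. The maternal calls among these were 0.13% and 0.324% of genes, and the paternal calls 0.189% and 0.52%. The difference between the tissues was -1.18 ± 0.35 for H13 (edgeR adjusted p 0.404). It passed without embryo 3 of CASTxBDF1 epiblast (adjusted p 0.0445), which had 14 of 22 maternal reads. Of the next gene on the far side, Id1, the wild-type shares were 40.1 to 47.6% in the 4 group means, with no parental call.

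The allelic share of H13 changed in no knockout by the test across all genes. In G9a-Glp ExE the lowest library had 45.4%, the median was 50.3% and the highest 63.6%, and 5 of 8 had less than the 55.6% of the lowest control (-0.79 ± 0.23, edgeR adjusted p 0.108). Dnmt1 ExE had 52.5, 46.0 and 63.8% (adjusted p 0.615), and Dnmt1 epiblast 59.1, 90.0 and 67.7% on 10 to 31 reads. Rnf2 had 77.4% ± 6.15 in epiblast (n = 6) and 70.4% ± 3.04 in ExE (n = 5), and Eed had 78.2% ± 8.91 (n = 9) and 68.9% ± 8.08 (n = 10). Over the embryos of a knockout, the Mcts2 and H13 shares were correlated in none of 5 groups with at least 6 libraries. In Eed epiblast, Pearson's r was -0.497 and Spearman's rho -0.368 (n = 9, exact permutation p 0.186 and 0.326, adjusted 0.638 and 0.555), and r was -0.707 without the 2 libraries farthest in Mcts2. In Rnf2 epiblast r was -0.504 and rho -0.6 (n = 6, exact permutation p 0.336 and 0.242, adjusted 0.638 and 0.555), and r was -0.358 without 2 libraries. G9a-Glp epiblast went the other way, with r 0.412 and rho 0.516 (n = 6, exact permutation p 0.383 and 0.333, adjusted 0.638 and 0.555), and 0.753 without 2 libraries. In ExE r was -0.162 and rho 0.073 for G9a-Glp (n = 8) and 0.196 and -0.082 for Eed (n = 10, permutation adjusted p 0.893 and 0.887 in both), and r was 0.257 and -0.152 without 2 libraries.

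**Figure D2:**
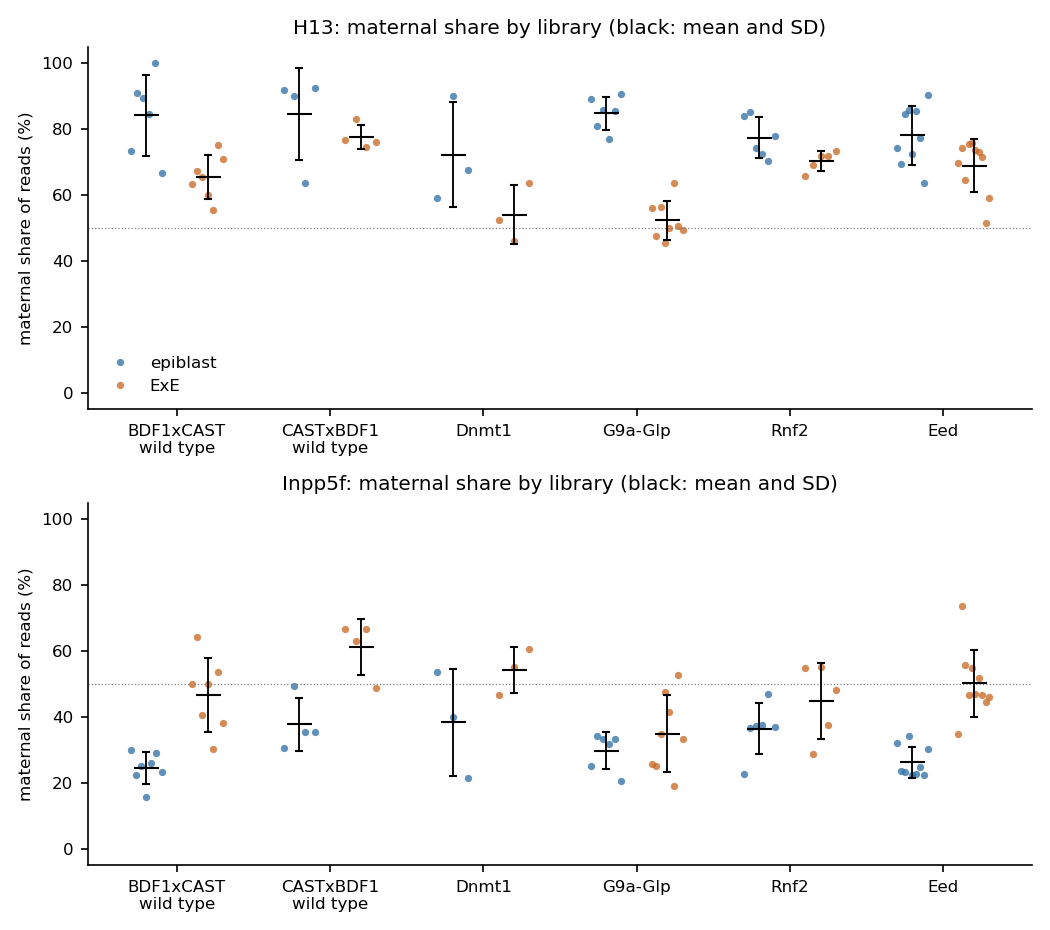
Maternal share of H13 and Inpp5f reads, in percent, for each library with at least 10 reads (points) in the 12 groups, with the mean and SD of each group. H13 lies above Inpp5f in wild-type epiblast, and the G9a-Glp ExE libraries of H13 lie between 45.4 and 63.6%.

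The amount of H13 RNA rose in 3 knockouts, in both tissues. In BDF1xCAST epiblast it stood at 11.0 ± 3.77 CPM (6.86 to 15.7, n = 7). It was 32.1 ± 5.47 CPM in G9a-Glp (27.4 to 42.1, n = 6), 24.0 ± 3.97 in Rnf2 (17.7 to 28.7, n = 6) and 30.1 ± 9.40 in Eed (19.0 to 49.4, n = 9), and each of these libraries lay above the highest of the wild type. The reciprocal wild type had 9.02 to 24.2 CPM in epiblast, so that embryo 4 of that cross reached into the range of the knockouts. In ExE the wild type stood at 23.0 ± 6.51 CPM (12.005 to 30.8, n = 7), G9a-Glp at 41.2 ± 11.7 (n = 8), Rnf2 at 40.2 ± 6.32 (n = 5) and Eed at 42.4 ± 9.94 (n = 10). Of these libraries 6 of 8, 5 of 5 and 9 of 10 lay above the wild type. Visceral endoderm markers were higher in these groups and also in Dnmt1, and their part in the H13 levels was not tested. The Dnmt1 medians were 38.2 CPM in epiblast and 38.0 in ExE. The median marker sum was 74.7 CPM in G9a-Glp, 23.5 in Rnf2 and 29.2 in Eed epiblast against 8.26 in the wild type. In ExE it was 53.8, 40.0 and 47.5 against 20.4. In bulk tissue a change in the number of cells of a type and a change in RNA per cell cannot be told apart.

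The edgeR test on total reads, with TMM scaling, gave log2 fold changes for H13 in epiblast of 1.44 ± 0.24 in G9a-Glp (adjusted p 0.000214), 1.07 ± 0.24 in Rnf2 (adjusted p 0.00322) and 1.26 ± 0.23 in Eed (adjusted p 0.000378). In ExE they were 0.78 ± 0.21 (adjusted p 0.0177), 0.75 ± 0.21 (adjusted p 0.0172) and 0.71 ± 0.18 (adjusted p 0.00347). In Dnmt1 the values were 0.04 and 0.22 (adjusted p 0.955 and 0.619), and 0 members changed in total where 14.1% and 18.5% of genes did. Many genes rose in these comparisons, 19.6%, 18.0% and 19.2% of those tested in epiblast and 8.5%, 12.2% and 22.7% in ExE. The 4 comparisons of a tissue share their wild-type libraries, so the H13 values in them are not independent. Wild-type ExE had more H13 than epiblast (1.06 ± 0.26, edgeR adjusted p 0.00205), where 56.7% of genes differed and 27.9% were higher.

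**Figure D3:**
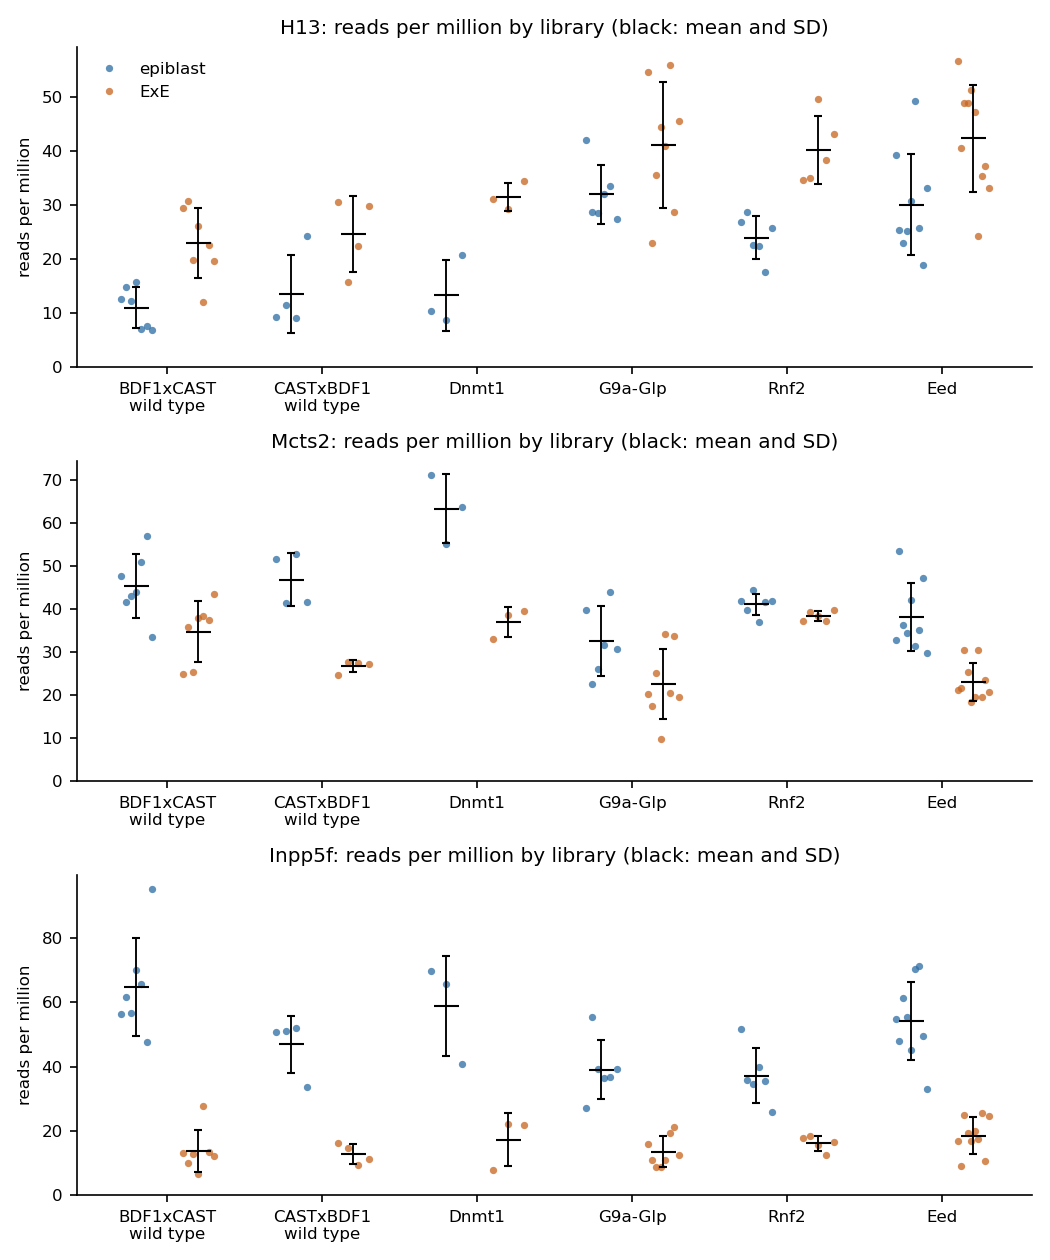
CPM of H13, Mcts2 and Inpp5f for each library (points) in the 12 groups, with the mean and SD. H13 in epiblast lies at 6.86 to 15.7 CPM in BDF1xCAST, 9.02 to 24.2 CPM in CASTxBDF1 and 17.7 to 49.4 CPM in the G9a-Glp, Rnf2 and Eed libraries.

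The CPM of Mcts2, H13 and Inpp5f were also split by allele. The tests were exact two-sided permutation tests over libraries, adjusted over 48 comparisons. They were run on these genes only. How often other genes would give such allele calls, or as many libraries beyond the wild type, was not tested. The shares of genes that rose or fell, given for the totals, do not apply to single alleles. In epiblast both alleles of H13 rose. The maternal allele went from 9.22 ± 3.53 CPM to 27.3 ± 5.40 in G9a-Glp (2.95-fold, exact permutation adjusted p 0.00839), and rose 2.04-fold in Rnf2 and 2.58-fold in Eed (adjusted p 0.00861 and 0.00839). The paternal allele went from 1.78 ± 1.10 CPM and rose 2.71-fold, 2.94-fold and 3.53-fold (exact permutation adjusted p 0.00999, 0.00861 and 0.00839). That wild-type level rests on 30 paternal reads over 7 libraries, with 0 CPM in the lowest, so these folds are imprecise. In ExE both alleles rose in Rnf2 (1.88-fold maternal and 1.51-fold paternal, exact permutation adjusted p 0.00861 and 0.024) and in Eed (1.95-fold and 1.66-fold, adjusted p 0.00861 and 0.0197).

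In G9a-Glp ExE the paternal allele of H13 stood at 19.3 ± 4.75 CPM (n = 8) against 7.83 ± 2.49 (n = 7), and 8 of 8 libraries lay above the highest wild-type library (2.46-fold, exact permutation adjusted p 0.00839). The maternal allele was at 21.9 ± 8.01 CPM against 15.1 ± 4.58 (1.45-fold, exact permutation adjusted p 0.125, and 0.0328 without G9a-Glp embryo 2). In Dnmt1 ExE the paternal allele stood at 14.3 ± 1.70 CPM (n = 3), with 3 of 3 above the wild type (1.83-fold, exact permutation adjusted p 0.0211, 0.05 after TMM scaling, and up to 0.0556 without any of the Dnmt1 libraries). The maternal allele there was 1.14-fold (exact permutation adjusted p 0.6). With 3 against 7 libraries the smallest p this test can give is 0.00833 before adjustment. With 2 against 7, as when a Dnmt1 library is left out, it cannot pass after adjustment.

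The total of Mcts2 passed the test in 3 knockout comparisons, each time downwards. It was 45.4 ± 7.45 CPM in wild-type epiblast and 34.8 ± 7.01 in ExE (n = 7 each). It fell in Eed ExE, to 23.1 ± 4.41 CPM (n = 10; -0.76 ± 0.17, edgeR adjusted p 0.00126). In the same comparison the ExE markers summed to a median of 416 CPM (308 to 647) against 696 (577 to 1032) and the visceral endoderm markers to 47.5 (38.0 to 75.1) against 20.4 (12.2 to 27.5), and their part in the Mcts2 and H13 totals was not tested. In epiblast it fell to 32.5 ± 8.13 in G9a-Glp (-0.56 ± 0.19, adjusted p 0.0347) and 38.1 ± 7.93 in Eed (-0.42 ± 0.16, adjusted p 0.0445). Both epiblast calls were near the threshold. The G9a-Glp call was lost without wild-type embryo 1, 6 or 7 or G9a-Glp embryo 2, 3, 4 or 7 (adjusted p up to 0.0806). The Eed call was lost without wild-type embryo 1, 3, 4, 6 or 7 or Eed embryo 1, 3, 4, 6, 8 or 10 (adjusted p up to 0.187). In G9a-Glp ExE the value was 22.6 ± 8.22 CPM (-0.67, edgeR adjusted p 0.0661), which passed without wild-type embryo 1 or G9a-Glp embryo 7 or 9 (adjusted p 0.0196 to 0.141 over the alternatives). Genes that fell made up 18.1% of those tested in Eed ExE, 15.0% in G9a-Glp epiblast and 16.5% in Eed epiblast.

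By allele, maternal Mcts2 rose from 0.534 ± 0.566 to 34.2 ± 7.78 CPM in Dnmt1 epiblast and from 0.207 ± 0.407 to 13.4 ± 1.04 in Dnmt1 ExE (exact permutation adjusted p 0.0211 for each). It was 0.0556 at most without a Dnmt1 library, where too few libraries are left for this test to pass. In Rnf2 epiblast it rose to 6.35 ± 5.26 CPM, in 5 of 6 libraries above the wild type (exact permutation adjusted p 0.00861), and in Eed epiblast it was 4.76 ± 6.42 (adjusted p 0.125). The paternal allele, which is the active one, fell in epiblast of all 4 knockouts. It was 0.650 times the wild type in Dnmt1, 0.711 in G9a-Glp, 0.774 in Rnf2 and 0.743 in Eed (exact permutation adjusted p 0.0348, 0.024, 0.0318 and 0.00861). These comparisons share their wild-type libraries and are not independent. Whether such a fall of 1 allele is unusual among all genes was not tested. The Dnmt1 value missed the threshold without any of its 3 libraries, where it could not pass, or wild-type embryo 1, 3 or 4 (exact permutation adjusted p up to 0.138). The Rnf2 value missed it without Rnf2 embryo 5, 6 or 8 or wild-type embryo 1, 6 or 7 (up to 0.0657). In ExE it fell to 0.595 times in G9a-Glp and 0.662 in Eed (exact permutation adjusted p 0.00861 each), and was 0.684 in Dnmt1 and 1.08 in Rnf2 (adjusted p 0.108 and 0.504). The Dnmt1 ExE value passed without wild-type embryo 1 or 3 (0.0457 at the lowest).

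**Figure D4:**
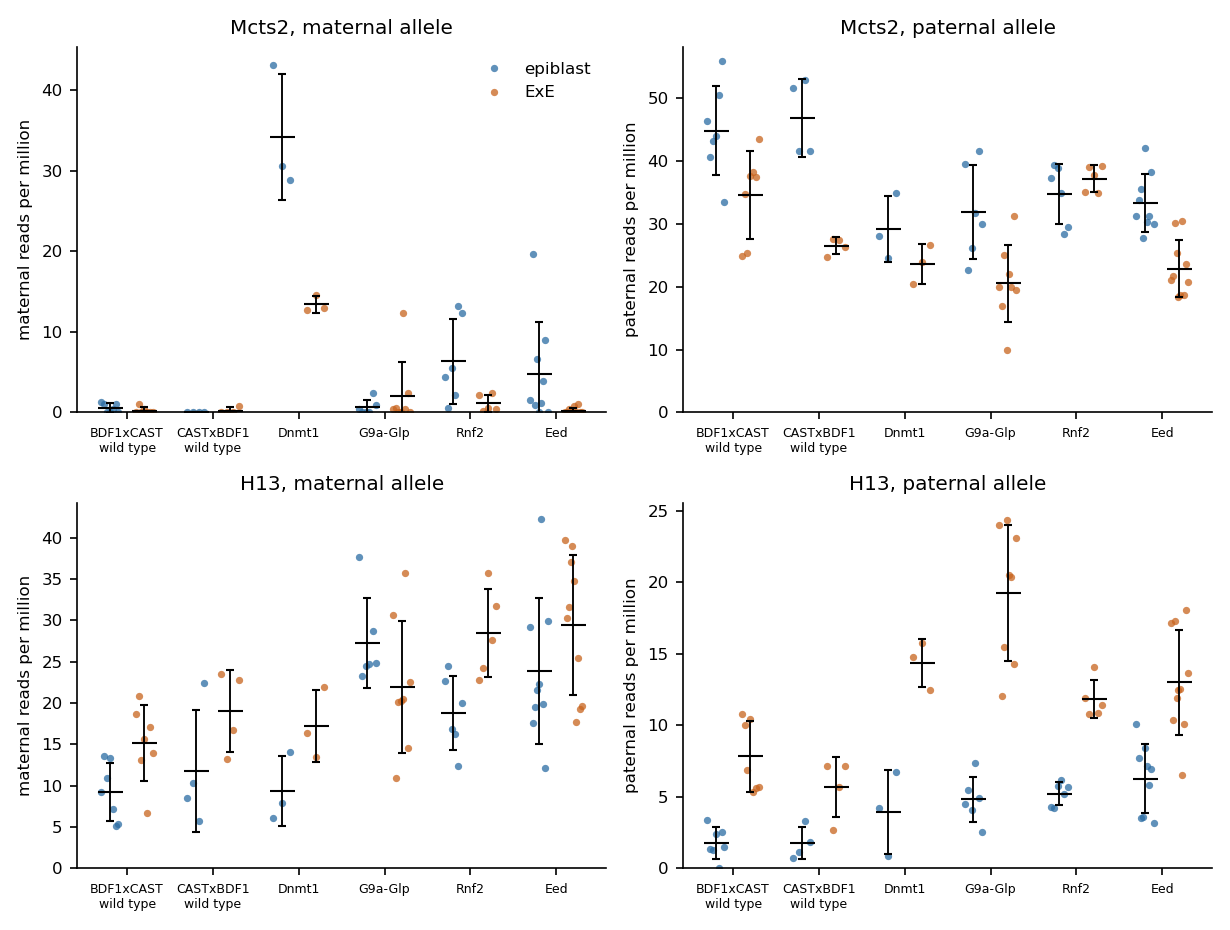
CPM of the maternal and the paternal allele of Mcts2 and H13 for each library (points) in the 12 groups, with the mean and SD. Maternal Mcts2 rises to 34.2 CPM in Dnmt1 epiblast, and paternal H13 rises from 7.83 to 19.3 CPM in G9a-Glp ExE.

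Zrsr1 (chromosome 11, 22972005 to 22976496, plus strand) is related to a factor of minor-intron splicing and lies in Commd1 (22899728 to 22983108, minus strand). It had too few reads for the test across genes, so its reads were summed over the libraries of a group. In the wild type they were nearly all paternal. Of BDF1xCAST reads 2 of 35 were maternal in epiblast (5.71%) and 0 of 43 in ExE, which allows up to 6.98%, and CASTxBDF1 had 3 of 23 (13.04%) and 0 of 38. Both maternal reads of BDF1xCAST epiblast were in embryo 8.

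In Dnmt1 the maternal reads of Zrsr1 were 16 of 30 in epiblast (53.3%, 95% Wilson interval 36.1 to 69.8) and 21 of 46 in ExE (45.7%, 32.2 to 59.8). By embryo they were 8 of 20, 2 of 3 and 6 of 7, and 2 of 6, 7 of 16 and 12 of 24. In Rnf2 ExE they were 5 of 17, 15 of 29, 1 of 3, 6 of 31 and 3 of 27, in sum 28.0% (20.4 to 37.2). Exact permutation tests of the summed share gave adjusted p 0.0444 and 0.0333 for Dnmt1 and 0.0333 for Rnf2 ExE, over 8 comparisons. The Rnf2 ExE call was lost without embryo 2, 5 or 6. Both Dnmt1 calls were lost without any 1 Dnmt1 library. That loss was fixed in advance, since 2 against 7 libraries give too few arrangements to pass after adjustment. Eed ExE had 9 of 86 (10.5%, exact permutation adjusted p 0.0586, and 0.0333 at the lowest without embryo 1, 2, 6, 9 or 10) and G9a-Glp ExE 13 of 51 (25.5%, adjusted p 0.149). In G9a-Glp ExE the maternal reads came from embryo 1 with 3 of 4, embryo 7 with 5 of 17 and embryo 10 with 5 of 5. G9a-Glp, Rnf2 and Eed epiblast had 6.90, 9.82 and 2.13% (exact permutation adjusted p 0.771 for each). The level of Zrsr1 was 7.58 ± 3.95 CPM in Dnmt1 ExE (n = 3) against 2.12 ± 1.46 (n = 7), which did not pass (1.56 ± 0.58, edgeR adjusted p 0.0755, and 0.0297 without wild-type embryo 8).

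Commd1, the host of Zrsr1, encodes a protein of copper handling and NF-kB control and was read from both alleles. Its group means ran from 40.6 to 53.1% maternal over the 12 groups. In BDF1xCAST epiblast the lowest library had 30.4%, the median was 42.3% and the highest 50.0%. The parental log2 ratio was -0.16 ± 0.15 in epiblast and -0.16 ± 0.13 in ExE (edgeR adjusted p 1 and 0.881). No knockout changed its share or its total by the edgeR tests, and its allelic log2 changes lay between -0.15 and 0.22. Zrsr1 lies in antisense orientation to Commd1, and use of strand in the counting is not given in the sources used here, so reads of the overlap could be counted for either. The genes on either side of Commd1, Tmem17 and Cct4, had no parental call.

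**Figure D5:**
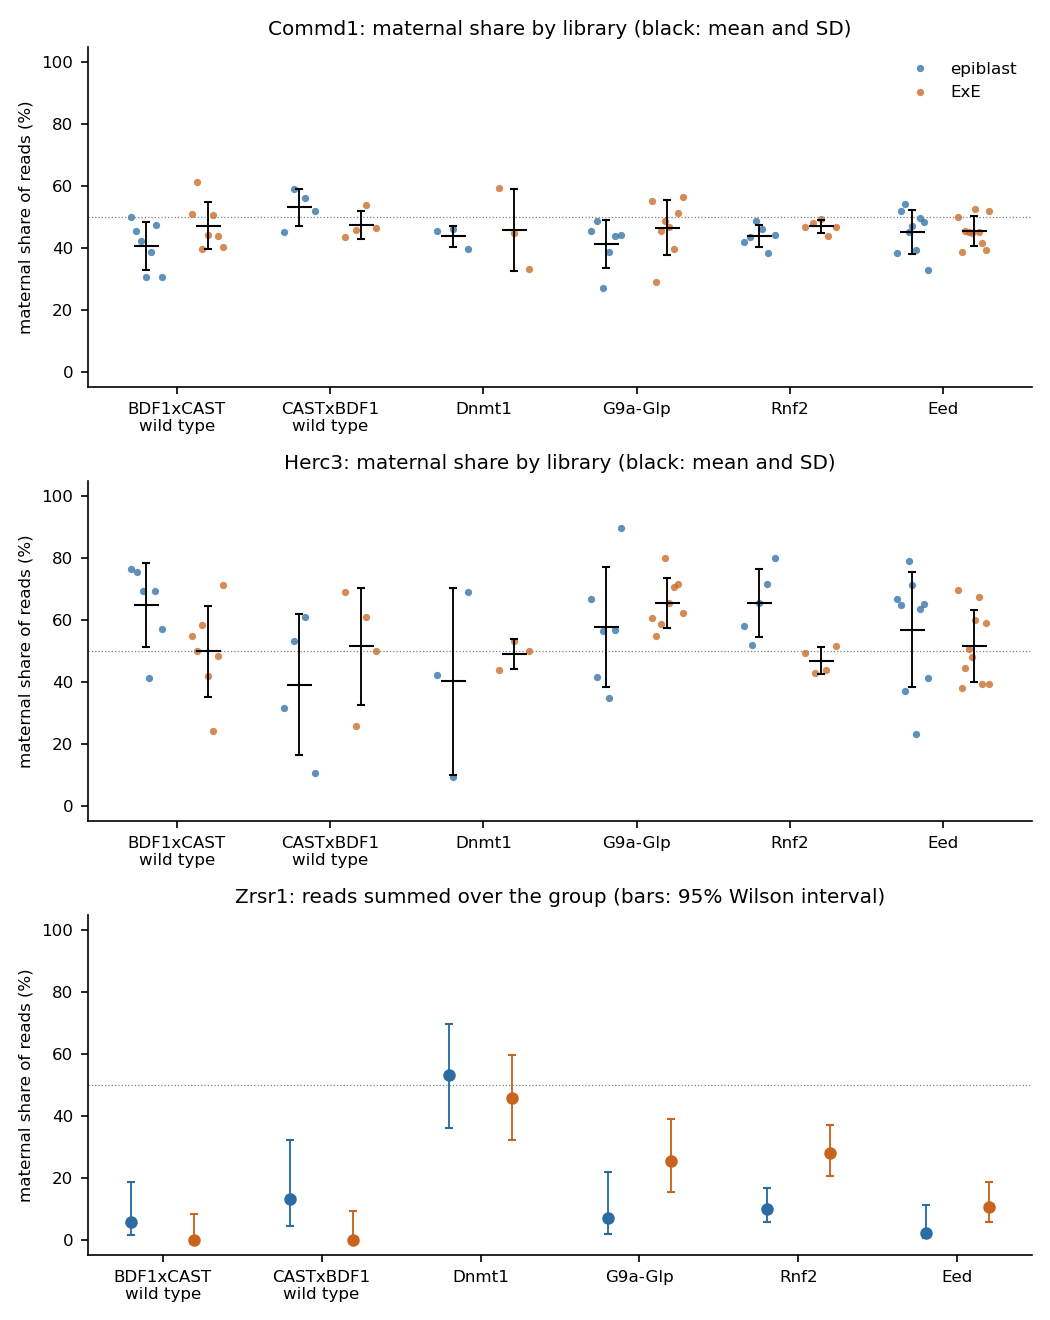
Maternal share, in percent, of Commd1 and Herc3 for each library with at least 10 reads (points, with mean and SD) and of Zrsr1 summed over each group (points, with 95% Wilson intervals) in the 12 groups. Commd1 group means stay between 40.6 and 53.1%, while Zrsr1 rises to 53.3% in Dnmt1 epiblast and 45.7% in Dnmt1 ExE.

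Nap1l5 (chromosome 6, 58905233 to 58907126, minus strand), of the nucleosome assembly protein family, was nearly without reads. It had 25 over all libraries, spread over 13 of 72, at most 5 in a library. All were paternal, with 0 maternal reads. Of these 23 were in epiblast libraries and 2 in ExE, both in embryo 1 of Eed. No Dnmt1 library held a Nap1l5 read, so its silent allele could not be followed there.

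Herc3 (chromosome 6, 58831454 to 58920398, plus strand), the host of Nap1l5, encodes a HECT ubiquitin ligase. Its shares varied widely on few reads. The means were 64.9% ± 13.5 (n = 6) in BDF1xCAST epiblast and 39.1% ± 22.8 (n = 4) in CASTxBDF1 epiblast, which is a majority of BDF1 reads in both. The parental log2 ratio was -0.01 ± 0.35 in epiblast and -0.02 ± 0.29 in ExE (edgeR adjusted p 1 for each). In G9a-Glp ExE the share was 65.5% ± 8.14 (n = 8) against 49.8% ± 14.7 (n = 7; 1.03 ± 0.38 on the log2 scale, edgeR adjusted p 0.308). Its totals changed in no knockout, and its neighbours Abcg2 and Tigd2 had no parental call.

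Inpp5f (chromosome 7, 128610778 to 128696437, plus strand) encodes a phosphoinositide phosphatase. Its intronic promoter is known in brain to drive a shorter, paternally expressed transcript, and the table gives both in 1 row. In BDF1xCAST epiblast 24.4% ± 4.79 of its reads were maternal (15.5 to 29.9, n = 7), and in CASTxBDF1 epiblast 30.7, 49.3, 35.4 and 35.5%. The parental log2 ratio in epiblast was -1.19 ± 0.13 (edgeR adjusted p 1.01e-05), a partial paternal bias that missed the rule for a paternally expressed gene because the CASTxBDF1 mean was 37.7%. In ExE the shares were 46.7% ± 11.3 (n = 7) and 61.3% ± 8.51 (n = 4), and the ratio was 0.20 ± 0.20 (edgeR adjusted p 0.91). The tissues differed by 1.38 ± 0.23 on the log2 scale (edgeR adjusted p 0.00135), among 0.317% of genes. Mcmbp, which starts 3 bases after the end of Inpp5f, was 60.4% ± 3.62 maternal in BDF1xCAST epiblast (n = 7) and 40.4% ± 2.69 in CASTxBDF1 (n = 4), with no parental call, and Bag3 on the other side had none.

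The wild-type level of Inpp5f was higher in epiblast, 64.8 ± 15.3 CPM against 13.7 ± 6.60 in ExE (n = 7 each; ExE minus epiblast -2.20 ± 0.24, edgeR adjusted p 4.21e-07), one of the 28.7% of genes lower in ExE. It fell in G9a-Glp epiblast to 39.0 ± 9.26 CPM (n = 6; -0.82 ± 0.17, adjusted p 0.00114) and in Rnf2 epiblast to 37.2 ± 8.46 (n = 6; -0.82 ± 0.17, adjusted p 0.0016), and 5 of 6 libraries of each lay below the lowest of the wild type. In these comparisons 15.0% and 13% of genes fell. Eed epiblast stood at 54.3 ± 12.2 CPM (n = 9; -0.39 ± 0.17, edgeR adjusted p 0.0685), and passed without wild-type embryo 7 or Eed embryo 8 (0.0345 at the lowest). No ExE comparison changed its total.

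By allele, it was the paternal reads of Inpp5f that fell in epiblast, from 49.3 ± 13.3 CPM to 27.3 ± 5.78 in G9a-Glp and 24.0 ± 8.35 in Rnf2 (exact permutation adjusted p 0.00861 and 0.0112). The maternal reads were at 15.5 ± 3.56 CPM in the wild type, 11.8 ± 4.28 in G9a-Glp and 13.2 ± 2.52 in Rnf2 (exact permutation adjusted p 0.17 and 0.278, the former 0.0379 without G9a-Glp embryo 2). In Eed ExE the maternal reads were at 9.09 ± 2.84 CPM (n = 10) against 5.96 ± 1.69 (n = 7), with 7 of 10 above the highest wild type (1.53-fold, exact permutation adjusted p 0.0414). That call was lost after TMM scaling and without any of 12 single libraries, Eed embryos 3, 4, 5, 6, 7, 8 and 10 and wild-type embryos 1, 2, 3, 4 and 8 (adjusted p up to 0.125). In epiblast the allelic test itself did not pass for G9a-Glp or Rnf2 (edgeR adjusted p 0.591 and 0.202). In Dnmt1 epiblast the shares were 53.7, 40.0 and 21.3%, of which 2 lay above the highest wild-type library and 1 within the wild-type range (1.07 ± 0.36, edgeR adjusted p 0.269). Embryo 3, the lowest, had 13 of 61 reads, and the same embryo had 45.3% maternal Mcts2.

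The autosomal genes whose maternal share was most like that of Mcts2 over the groups were Cdh15, Snhg14 and Snrpn-Snurf. The measure was the mean absolute difference of group means, which was 3.72 points over 11 groups, 4.09 over 11 and 4.80 over 12, among 8381 genes. Cdh15 was 56.0% maternal in Dnmt1 epiblast and 34.7% in Dnmt1 ExE, beside 53.8% and 36.3% for Mcts2. In Rnf2 and Eed epiblast Cdh15 had 5.48 and 9.07%, where Mcts2 had 15.2 and 10.8%, and Snrpn-Snurf had 0.0 and 0.05%. For H13 the nearest were Cyct (10.2 points), H2-K1 (10.3) and Dok2 (10.9), far less close.

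Of 4 hosts of other imprinted promoters, 2 were tested and 0 had a parental call in either wild-type tissue by edgeR. Blcap, the host of Nnat, was 60.4% ± 19.7 maternal in BDF1xCAST epiblast (n = 5) and 69.7% ± 9.96 in CASTxBDF1 (n = 4), and 52.0% in ExE of both. Trappc9, the host of Peg13, was 51.0% ± 14.7 (n = 6) and 48.3% ± 32.3 (n = 4) in epiblast. Igf2r, the host of Airn, had 30 reads in BDF1xCAST ExE, and Kcnq1 had 11 in all, 10 of them in Eed ExE. Neither reached the read minimum of the test, and no knockout changed the allelic share of a tested host of this list. In libraries with at least 10 reads, Igf2r was 96.3% ± 4.23 maternal in Eed ExE (n = 8), 90.7% ± 3.64 in Rnf2 ExE (n = 3) and 85.5% ± 13.5 in Rnf2 epiblast (n = 5). Single libraries had 100% in BDF1xCAST ExE, 91.7% in G9a-Glp ExE and 63.6% in Eed epiblast. All these embryos had a BDF1 mother, so for Igf2r parent and strain cannot be told apart.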

How the data were processed

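RNA of epiblast and ExE from single embryos was sequenced after SMART-Seq v4 amplification and Nextera XT library preparation, per the labels' protocols. The submitters' processing notes name STAR 2.5.0, HTSeq and mm10. Per the file headers, each gene and library has a deposited read count over strain polymorphisms, an allelic ratio (the CAST share minus 0.5, rounded) and an allelic score, from its values a signed -log10 of a binomial p-value that is 0 under 10 reads. Use of strand was not given in the sources used here. The CAST count of a gene was recovered from score and total (the integer matching the score within 0.0011), which succeeded for 99.5955% of 715156 scored values, and 0 values of the 7 genes rested on the rounded ratio. All 72 libraries were mapped and 0 columns were left over. A bisulfite sample was not analysed here.

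Allelic tests used edgeR 4.0.16 (quasi-likelihood, R 4.3.3) on maternal and paternal counts with a term for each library, over autosomal genes with at least 10 reads in 3 libraries of each group. Totals were scaled by TMM and filtered by filterByExpr. These p-values were two-sided, adjusted across the whole table by Benjamini-Hochberg and called under 0.05. DESeq2 1.42.0, other read minimums, a replicate block and leaving out each library were tried. The edgeR script was tested on simulated data. Permutation tests (scipy 1.17.1, exact except for a correlation over 10 libraries) were adjusted over their own families, 48 allele levels, 8 summed Zrsr1 shares and 5 correlations.

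The 7 genes and the gene lists were chosen with earlier results of these data known. The tissue interactions, the split by allele, the summed Zrsr1 share and the correlations were chosen after seeing the data. Named beside the 7 genes are their X-linked relatives, the nearest testable gene on each side of a host, the 3 genes nearest in share to each gene called imprinted, and listed hosts with reads. Same-numbered knockout and wild-type libraries share only a number, whereas wild-type tissues with the same number came from the same embryo by their labels. Correlations of their deviations were 0.0157 to 0.48 in BDF1xCAST, where 2 of 7 pairs correlated best with their own number. In CASTxBDF1 3 of 4 did. The pairing thus rests on the labels. The labels' embryo and title numbers disagree for some Eed libraries above embryo 6.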

Additional observations from a re-analysis of the deposited data

Results flagged for a closer look

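In 122 sets, each 1 gene and 1 measure in a group of 4 to 10 libraries, 14 values lay far from the others by Dixon's test. About 1 in 20 sets is flagged by chance (6.1 here). The sets are not independent, and some libraries were flagged for more than 1 gene. For the maternal share of Mcts2 these were embryo 7 of G9a-Glp ExE (35.87%, 92 reads), embryo 2 of BDF1xCAST ExE (3.0%, 100 reads) and embryo 4 of CASTxBDF1 ExE (3.03%, 99 reads). For H13 they were the share in CASTxBDF1 epiblast embryo 3 (63.64%, 22 reads, where the nearest other had 90%) and the level in embryo 4 of that group (24.25 CPM against 11.44 in the nearest other).

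For Inpp5f they were the level in BDF1xCAST ExE embryo 6 (27.68 CPM, 83 reads) and in CASTxBDF1 epiblast embryo 4 (33.66 CPM, the lowest of its group). Embryo 2 of CASTxBDF1 epiblast, the library highest in visceral endoderm markers, had 12.2 CPM of Herc3 (32 reads). For Zrsr1 they were CASTxBDF1 ExE embryo 4 (4.665 CPM, 17 reads), G9a-Glp ExE embryo 7 (6.339 CPM, 17 reads), BDF1xCAST epiblast embryo 8 (8.385 CPM, 11 reads) and CASTxBDF1 epiblast embryo 1 (3.34 CPM, 9 reads). For Nap1l5 they rest on 2 reads in Eed ExE embryo 1 (0.7285 CPM) and 3 in BDF1xCAST epiblast embryo 3 (1.258 CPM). Embryo 8 of BDF1xCAST epiblast and embryo 7 of G9a-Glp ExE were also high in visceral endoderm markers (450 and 138 CPM), whose part in these values was not tested.

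The parental ratio of Inpp5f differed between the wild-type tissues by 1.377 on the log2 scale in the edgeR test of that difference (adjusted p 0.00135), with the paternal excess in epiblast.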

How the results depend on the processing

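None of the called results changed direction under the alternatives run. Values that were not called could change sign. The summed Zrsr1 share in Eed epiblast, -3.59 points against the wild type, was 2.13 at the highest without 1 library. Maternal H13 in Dnmt1 ExE, 1.14-fold, was 0.957-fold after TMM scaling. For the parental bias, where 3 members were called in epiblast and 2 in ExE, H13 had too few reads to be tested in epiblast at a minimum of 50 reads (2 members), and Zrsr1 was added in both tissues with no minimum beyond 1 read (4 and 3). The other alternatives called as many members as reported. The number of genes called over all genes moved most with the read minimum. At 50 reads it was 16 and 46 for the parental bias in epiblast and ExE, and 11 for the tissue difference, where 0 members were called because Inpp5f was not tested. With no minimum beyond 1 read it was 58, 154 and 37. For the allelic change it was then 137 and 163 in Dnmt1, 273 and 208 in G9a-Glp, 209 and 251 in Rnf2 and 216 and 416 in Eed (epiblast and ExE). Mcts2 and Zrsr1 (2 members) were then called in Dnmt1 ExE and in Rnf2 ExE, and Mcts2 (1 member) in G9a-Glp ExE, Rnf2 epiblast and Eed epiblast. With the DESeq2 Wald test Mcts2 was called in Rnf2 epiblast (1 member), the genes were 139 and 130 in Rnf2, and Mcts2 and H13 were 2 called totals in G9a-Glp ExE.

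With a replicate block, whose numbers do not pair knockout with wild-type embryos (correlations of deviations below 0.1 in at least 1 pair of each comparison), Mcts2 was called in Eed epiblast (1 member, 43 genes), and Rnf2 had 21 and 26 genes. The totals then gave 0 members in G9a-Glp ExE and Rnf2 ExE and 1 in Eed epiblast, with 1125, 494 and 1909 genes in Rnf2 epiblast, Rnf2 ExE and Eed epiblast. In the wild-type tissues, where the block is the embryo, it changed no member's call. For the difference between tissues in the allelic change, Dnmt1 had 0 genes by edgeR, 2 by DESeq2, 11 with no minimum and 7 with the block, G9a-Glp had 63 with no minimum and Rnf2 38 by DESeq2. With no filter on low counts the wild-type tissues differed in 8651 totals, and Eed epiblast had 1 member. A further setting left out 4 libraries that were the highest of their groups in visceral endoderm markers. These were BDF1xCAST epiblast embryo 8, CASTxBDF1 epiblast embryo 2, G9a-Glp epiblast embryo 5 and G9a-Glp ExE embryo 7. Dnmt1 epiblast then had 102 allelic genes and 2447 totals, and G9a-Glp ExE had 2 called totals. Dnmt1 epiblast embryo 1 (188 CPM) and G9a-Glp epiblast embryos 2 and 3 (166 and 139 CPM) were kept. The Dnmt1 epiblast comparison thus lost only a wild-type library.

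Leaving out 1 library at a time, the allelic change gave 36 to 102 and 28 to 69 genes in Dnmt1 epiblast and ExE, 61 to 108 in G9a-Glp ExE, and 38 to 71 and 50 to 87 in Rnf2 epiblast and ExE, and the totals 671 to 2447 and 603 to 2223 in Dnmt1. The lowest Dnmt1 counts came without Dnmt1 embryo 3. Members called were 1 to 2 for the tissue difference (H13 the second), 0 to 1 for the allelic change in Rnf2 and Eed epiblast (Mcts2) and for totals in Dnmt1 ExE (Zrsr1), and 1 to 2 for totals in Eed epiblast and G9a-Glp ExE. Of the single values, 402 were scored the same under other settings, 8 gained a call, 7 lost it and 4 moved. The 402 and the 4 include values that have no call. These are group mean shares, scored the same within 1 SD, and the lists of genes most alike in share. Without 1 library 1113 test results stayed the same, 24 gained a call and 60 lost it. The losses include Dnmt1 permutation calls that could not pass with a Dnmt1 library left out. The cause of these differences was not tested. Depth limits Nap1l5 (25 reads in all) and Zrsr1 (647), and shares on 10 to 30 reads carry wide counting error.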

Other observations

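Zrsr2, the source gene of Zrsr1, had 71.0 ± 6.48 CPM in BDF1xCAST epiblast and 119 ± 24.2 in ExE (n = 7 each). Its maternal share was 96.0% ± 4.99 in BDF1xCAST ExE (n = 7) and 83.6% ± 11.1 in CASTxBDF1 ExE (n = 4), in a tissue where the paternal X is known to be silenced. In epiblast it was 71.9% ± 34.9 and 71.2% ± 18.6, over embryos that the labels give as female and male. Nap1l2, a relative of Nap1l5, had 64 reads in BDF1xCAST epiblast and 1 in ExE, and Nap1l3 had 31 and 4.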
